A study of Homo sapiens with 22 samples.

Results

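The regions described here are the stretches of the human genome (build hg38) that collected the most piggyBac transposon insertions per target site in K562 cells. The genome was cut into bins of 10 kb, and a bin was chosen when it held at least 20 TTAA tetranucleotides, the sequence that piggyBac uses as its target, and at least 30 insertions per TTAA site, summed over 20 libraries. Of the 264029 bins of chromosomes 1 to 22 with enough TTAA sites, called eligible below, 2531 met the rule (0.959%). Counting a position and orientation once per library whatever its barcodes, which allows a site at most 40 insertions, left 238 of them at a threshold scaled to 20.7 per site. Merging neighbouring bins gave 1958 dense regions that together span 25.31 Mb. Insertion density chose these members, so it is given as a description with no test, while orientation and the difference between helpers were not used by the rule and were tested.

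K562 is an established cell line derived from a chronic myeloid leukemia, with erythroid features. Every library came from K562 cells electroporated with 5 ug of the donor Barcoded-PBase-SRT-Puro and 5 ug of a helper plasmid that encodes the transposase. The helper was hyPBase in 10 libraries (labelled WTHYPB) and hyPBase-centrip in the other 10 (labelled WTHYPBcentrip), with 3 transfections pooled in each dish and puromycin at 2 ug/ml for 11 days. No transcription factor was fused to either helper, so helper was the one labelled difference between the groups, and the p-values below measure the spread between these pooled dishes of 1 cell line. A further 2 libraries carry the name ClarkMut, and their labels name different helpers in different fields. They took part in no comparison, and whether either helper was used in them is not known.

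In calling cards, a transposase leaves a transposon near the place where it was bound, and the self-reporting transposon is then read from the RNA that runs from its own promoter into the flanking genome. Unfused piggyBac transposase is known to insert often near chromatin with acetylated histones, which is abundant at enhancers, at super-enhancers and at active promoters. In erythroid cells such elements lie at the globin genes, at genes of heme synthesis and the red cell membrane, and at the transcription factors TAL1, GFI1B, LMO2, NFE2 and GATA family members.

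The 20 libraries held 52154230 insertions, from 1509672 to 3596762 each, an insertion being a distinct position, orientation and 4-base transposon barcode. With the 21 barcodes that each made up at least 0.5% of insertions and both orientations, 1 TTAA site could collect about 840 insertions over 20 libraries. The most heavily used site in a dense region collected 827, so the hottest sites were near this ceiling. Both numbers count barcodes, and the ceiling limits how far 1 site can raise the density of a bin. It also limits how uneven the orientations of the hottest sites can be.

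The sites at the centre of the densest regions show what a hotspot looks like in sequence. Each line gives the plus strand of hg38 around the most used TTAA site of 1 of 5 of the densest regions, with every TTAA in capitals and 48 bases on each side of that site. The line at IL10RA is kept to 30 bases because its site lies in an untranslated region of SMIM35.
chr19:28605907-28606006, nearest protein-coding gene UQCRFS1: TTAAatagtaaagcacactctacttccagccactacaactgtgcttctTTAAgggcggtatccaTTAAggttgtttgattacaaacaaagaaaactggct
chr17:42317632-42317731, STAT3 and STAT5A: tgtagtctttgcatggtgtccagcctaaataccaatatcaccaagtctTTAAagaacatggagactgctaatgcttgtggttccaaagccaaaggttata
chr11:118005295-118005324, IL10RA and SMIM35: ctgagtcacctctTTAAggaacaacttgtt
chr5:81753118-81753217, SSBP2: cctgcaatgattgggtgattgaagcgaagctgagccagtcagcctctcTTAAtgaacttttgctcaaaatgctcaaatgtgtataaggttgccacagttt
chr18:2303104-2303203, nearest gene METTL4: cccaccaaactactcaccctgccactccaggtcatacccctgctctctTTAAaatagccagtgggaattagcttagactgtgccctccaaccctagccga

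These sites collected 751 insertions at the first of them, 680 at STAT3 and STAT5A, 702 at IL10RA, 624 at SSBP2 and 827 near METTL4, and each was hit in 20 of 20 libraries. Both orientations were frequent at every one of them, with 411 minus and 416 plus insertions near METTL4 and 274 minus and 406 plus at STAT3 and STAT5A. The ceiling of about 840 insertions per site limits each orientation alike. Near-even use of a site close to it is therefore in part set by the ceiling. The site at STAT3 and STAT5A lies in an annotated exon of STAT3. The site near METTL4 and the site of the chromosome 19 region lie in lncRNA genes, and that at SSBP2 lies between genes.

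A second set shows the same for regions of 5 erythroid genes: HBG1 (a fetal globin), GFI1B and TAL1 (erythroid transcription factors), RHAG (a membrane glycoprotein of the Rh complex) and TFRC (the transferrin receptor, which brings iron into the cell).
chr11:5256442-5256541, HBG1: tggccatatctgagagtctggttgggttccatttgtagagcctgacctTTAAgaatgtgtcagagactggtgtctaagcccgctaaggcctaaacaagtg
chr9:132980114-132980213, GFI1B: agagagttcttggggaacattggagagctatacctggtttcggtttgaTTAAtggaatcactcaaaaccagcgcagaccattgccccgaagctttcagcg
chr6:49646746-49646845, RHAG: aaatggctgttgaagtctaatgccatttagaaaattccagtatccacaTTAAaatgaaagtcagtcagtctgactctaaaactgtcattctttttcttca
chr1:47237739-47237838, TAL1: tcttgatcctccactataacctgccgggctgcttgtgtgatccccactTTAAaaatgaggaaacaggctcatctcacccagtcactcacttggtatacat
chr3:196126927-196127026, TFRC: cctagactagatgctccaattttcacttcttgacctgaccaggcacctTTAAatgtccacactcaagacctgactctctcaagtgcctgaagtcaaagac

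The 5 erythroid sites collected 502 insertions in the region over HBG1, 426 at GFI1B, 692 at RHAG, 602 at TAL1 and 672 near TFRC, again in 20 of 20 libraries each. The GFI1B site lies in an intron of that gene, 1451 bases downstream of a start site. The sites of RHAG, TAL1 and TFRC lie between genes. The site given for HBG1 is not in that gene. It lies inside the span annotated for HBG2, which in GENCODE release 44 is far longer than the globin gene itself. Its position is -1707 bases from the nearest protein-coding start site, on the upstream side.

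The base on each side of TTAA went with how often a site was used. Within dense regions, TTTAAA sites held 72.8 insertions per site, CTTAAA sites 61.9, ATTAAA sites 53.8 and GTTAAC sites 5.47. Over all eligible bins TTTAAA was again the most used context, at 4.65 insertions per site, and GTTAAC the least used, at 0.266. The single most used site of a region had the context TTTAAA in 697 of 1958 regions (35.6%) and GTTAAC in 0, while these contexts made up 18.6% and 2.19% of the TTAA sites of dense regions. Both strands were read as 1 context.

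Dense regions held 0.831% of the eligible TTAA sites and 14.6% of the insertions, 49.2 insertions per site against 2.81 over all eligible bins. The median dense bin held 41.6 insertions per site and the densest 227, in the 80 kb region inside DLGAP1. By density, 1153 bins lay between 30 and 40 insertions per site, 896 between 40 and 60, 387 between 60 and 100, and 95 above. The 3 regions just inside the threshold, near SMIM42, SLC4A3 and GALM, stood at 30.0 insertions per site, and the 3 bins just outside, near CSMD1 and in CCDC91 and TFB2M, at 29.96 to 29.97.

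Most TTAA sites of dense regions were hit, but unevenly. In dense bins 91.9% of the TTAA sites were hit at least once, against 49.0% in eligible bins, and 19.7% were hit in all 20 libraries, against 0.443%. These shares follow in part from the rule, which asks for many insertions. The median site held 16 insertions against a mean of 49.2, and 21047 of the 148683 sites held more than 100. The most used site held a median of 14.3% of a region's insertions, where an even spread over the 57 sites of the median dense bin gives 1.75%. In all, 333 regions had more than 25% of their insertions at 1 site. The clearest case was a bin near RTN4R, chr22:20200001-20210000, where 674 of 809 insertions (83.3%) sat on 1 of 20 TTAA sites, and a bin in EIF3I, a translation initiation factor subunit, had 710 of 959 (74.0%) on 1 site. Among the 487 eligible sites with more than 600 insertions, 445 lay in dense bins.

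**Figure D1:**
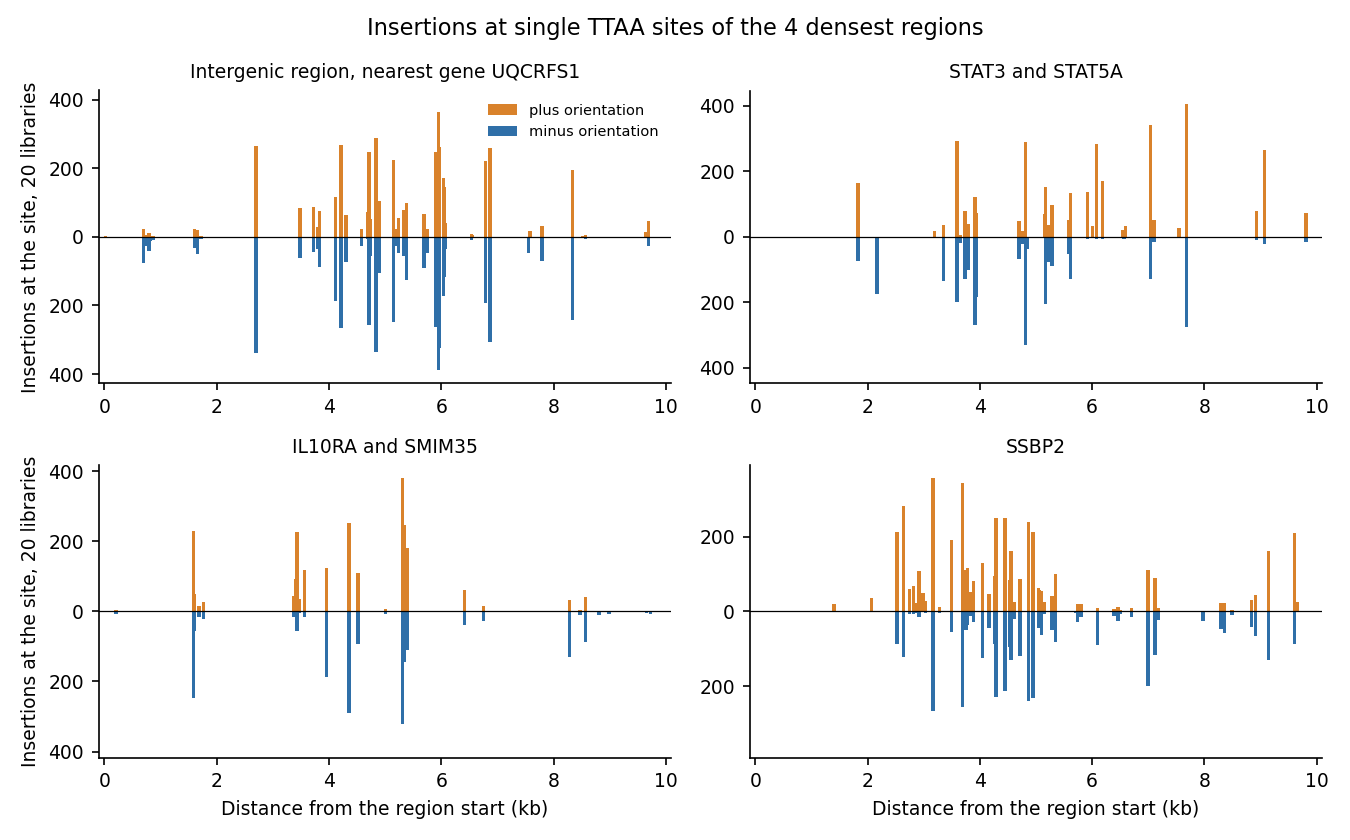
Insertions at each TTAA site (bars; y axis, insertions summed over 20 libraries, plus orientation upward and minus orientation downward) against distance from the region start in kb, for the 4 densest regions. Sites across each 10 kb region are used to very different degrees, in both orientations, and no single site holds more than 16.3% of the insertions in any of the 4.

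As a description of the libraries that chose the members, in 1657 of the 2531 dense bins (65.5%), every one of the 20 libraries on its own exceeded the density that the rule asks of the sum, scaled to that library (10.7 times the library's mean density), and the lowest count for any dense bin was 8 libraries. The choice was also made from each helper alone. Members found from the hyPBase libraries alone numbered 2565 bins and those from hyPBase-centrip alone 2475, and 2355 were shared, which is 91.8% of the first set and 95.2% of the second. Bins chosen in hyPBase libraries alone held 17.0 times the eligible density in the hyPBase-centrip libraries, which that choice did not use, and the reverse choice gave 18.0 times in the hyPBase libraries. Each library put 13.5% to 15.9% of its insertions into dense regions, with 14.9% ± 0.512 (SD, n = 10) for hyPBase and 14.4% ± 0.644 (SD, n = 10) for hyPBase-centrip, and the groups overlapped.

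Dense regions were short. Of the 1958, 1562 were 1 bin long (79.8%), 288 were 2 bins and 108 were 3 to 8 bins long. Around them the density fell quickly but not to the genome level. Eligible bins 10 kb away that were not members held a median of 9.81 insertions per site, those 100 kb away 4.15 and those 500 kb away 2.55, against a median of 1.45 over all eligible bins. Dense regions also clustered, with 999 of 1958 (51.02%) within 100 kb of another. Only 995 windows of 1 Mb held any, and 18 windows held at least 10 dense bins, the top one being chr6:26000001-27000000 with 24, where the major histone gene cluster lies.

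**Figure D2:**
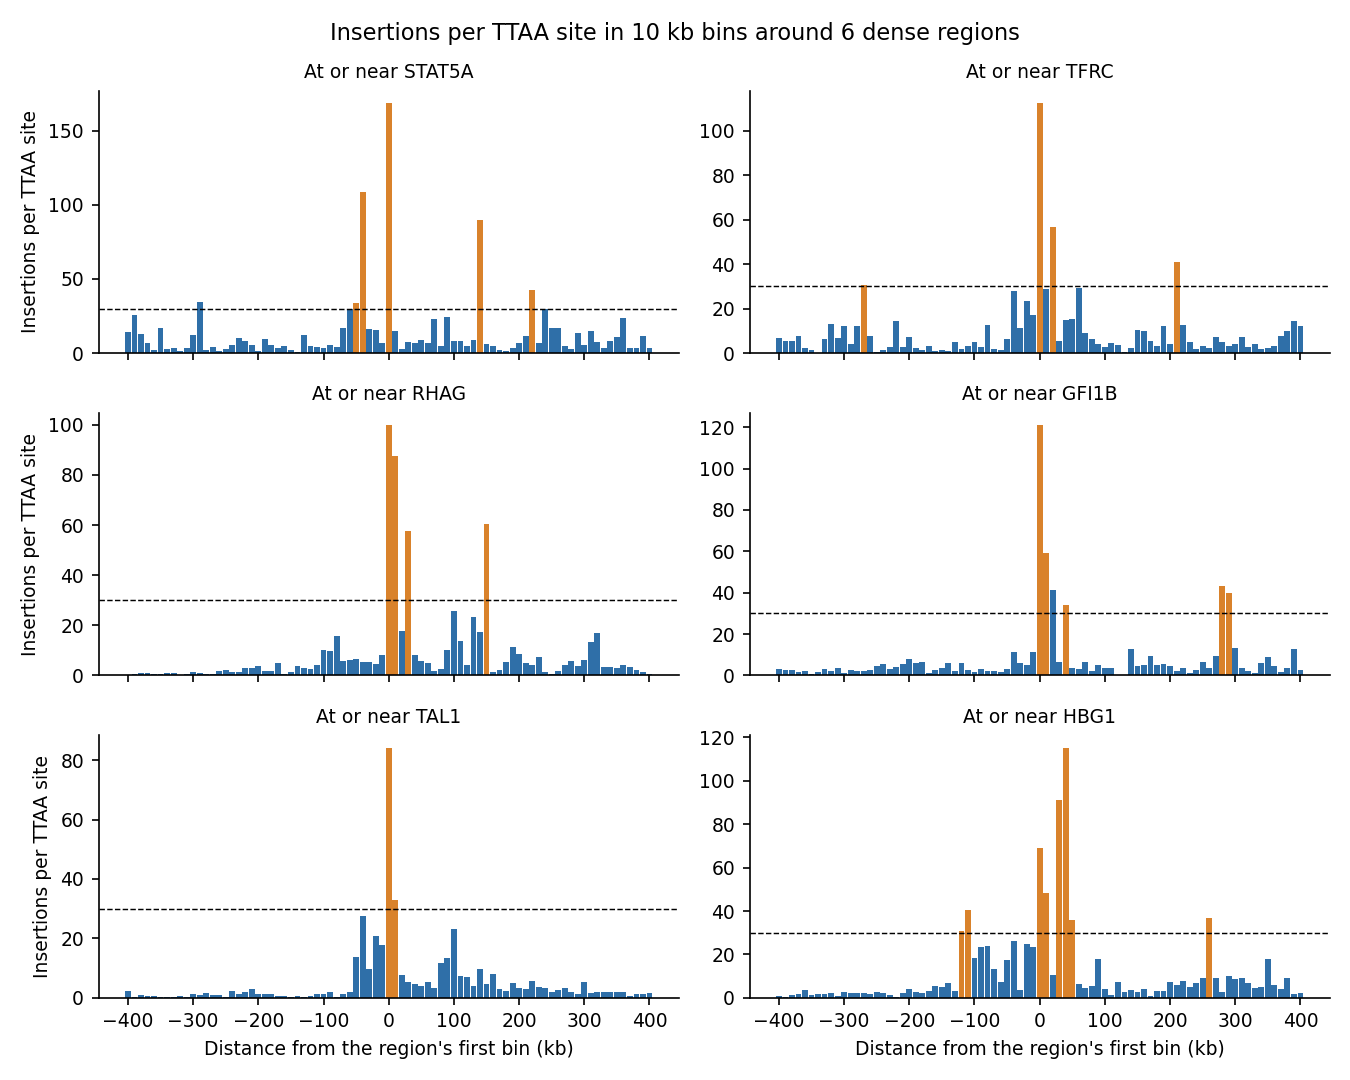
Insertions per TTAA site (y axis, sum of 20 libraries) in 10 kb bins up to 400 kb on each side of 6 dense regions at or near erythroid genes. Orange bars are dense bins, blue bars other bins, and the dashed line marks 30 insertions per site; blue bars above it had fewer than 20 TTAA sites. Each locus shows runs of 1 to 3 dense bins above surroundings of lower density.

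By density, the top region lies on chromosome 19 at chr19:28600001-28610000, 595 kb from the nearest protein-coding gene, UQCRFS1, with 170 insertions per site (9534 insertions at 56 sites). Its abundance in each library, given in CPM (insertions scaled to a common library total after TMM normalization), was 241 at the lowest, 269 at the median and 347 at the highest for hyPBase, and 223, 254 and 375 for hyPBase-centrip. The next, chr17:42310001-42320000, overlaps STAT3 and STAT5A, transcription factors of the JAK-STAT pathway, with 169 insertions per site. Its libraries ranged from 165 over a median of 195 to 233 CPM with hyPBase and from 156 over 175 to 192 with hyPBase-centrip. In both regions the groups overlapped.

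The next region, chr11:118000001-118010000 at IL10RA, the interleukin 10 receptor, and SMIM35, held 154 insertions per site, and that at chr5:81750001-81760000 at the start of SSBP2, a single-stranded DNA binding protein, held 144. Others of the 10 densest were near METTL4 (137 insertions per site, 228 kb from the gene), near B3GNT2 (133, 65.3 kb away), in VMP1 (123), in PALD1 (122) and near POGK (121, 129 kb away). Of these 9, 4 overlap no protein-coding gene. The 50 kb on each side of them held 6.51 to 13.8 insertions per site.

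The longest regions were an 80 kb stretch within DLGAP1, a scaffold protein gene (chr18:3590001-3670000, 91.7 insertions per site), and an 80 kb stretch over RAB31, TXNDC2 and VAPA (chr18:9840001-9920000, 59.4). There were 5 regions of 70 kb. Those with the most insertions lie at chr6:146850001-146920000 near ADGB, chr7:106540001-106610000 near CCDC71L and chr11:86130001-86200000 beside EED, a subunit of Polycomb repressive complex PRC2. The region near ADGB, which overlaps the lncRNA STXBP5-AS1, had more insertions than any other dense region, 51158, and its libraries ranged from 1375 over a median of 1492 to 1685 CPM with hyPBase and from 1211 over 1373 to 1558 with hyPBase-centrip. These values overlapped between helpers.

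Protein-coding genes overlapped 1275 of the 1958 regions (65.1%), and 1036 regions lay over 1 gene. The other 683 lay at a median of 34.2 kb from the nearest protein-coding gene, 157 of them more than 100 kb away, and 165 of the 683 overlapped a named lncRNA gene. RUNX1, the hematopoietic transcription factor, had 9 separate dense regions, the most of any gene, followed by ALDH1A2 and NFIA with 6 each and SGMS1 with 5. RUNX1 regions ranged from 34.1 to 83.0 insertions per site, and 1 of the 9 contained a start site. SOX6, a repressor of embryonic globin, and GAB2, a signalling adaptor downstream of BCR-ABL1, had 4 each.

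Many loci of the erythroid lineage carried a dense region. A gene was counted when a dense region lay within it or 5 kb of it, and 1632 of 19103 protein-coding genes (8.54%) were. In the globin list 6 of 11 genes were counted, in that of erythroid regulators 11 of 27, in that of the red cell membrane 12 of 31 and in that of heme and iron 6 of 21. Of 24 genes of lymphoid and myeloid cells, 2 were counted (8.33%), CEBPE and FCGR3A. Genes lying in tandem share regions, and longer genes have more room for one, so these counts are a description of the loci, with no test.

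The densest region at the beta-globin locus, chr11:5270001-5300000, upstream of HBE1 on the side where the locus control region lies, held 81.4 insertions per site. The region chr11:5240001-5260000, over HBD, HBG1 and HBG2, held 58.6. At the alpha-globin locus a region over HBZ and NPRL3 held 44.9. HBB, the adult globin gene, was 10.6 kb from the nearest dense region, and HBA1 and HBA2 were 26.7 and 22.9 kb from one.

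Among the erythroid regulators, STAT5A had 169 insertions per site in its densest region, GFI1B 88.0, STAT5B 64.5, BACH1 56.1, TAL1 55.7, LMO2 47.7 and NFE2 46.4. Regions beyond gene ends were dense as well, with 90.5 insertions per site 31.3 kb from MYB and 79.05 at 37.9 kb from LMO2. KLF1, a master regulator of erythroid genes, lay 123 kb from the nearest dense region, although the gene itself held 33.8 insertions per site. BCL11A, the fetal globin repressor, lay 326 kb from one and held 1.61 insertions per site.

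Genes in the red cell membrane list with a dense region included RHAG (93.9 insertions per site), ERMAP (73.6), ANK1 (62.6), EPB41 (42.3) and RHCE (41.3). HEMGN (59.2) was counted in that list too, although it encodes a nuclear protein and not one of the membrane. SLC4A1, the anion exchanger band 3, lay 1062 kb from a dense region and held 6.19 insertions per site. Of the heme and iron genes, FTH1 (ferritin heavy chain) had a region of 59.8 at 2.367 kb from the gene, SLC11A2 (an iron transporter) 46.7 and FECH (ferrochelatase) 44.3. The transferrin receptor gene TFRC had none within 5 kb, but chr3:196120001-196130000, 37.8 kb away, held 112.

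Of the list of stem cell and megakaryocyte genes 6 of 25 were counted, among them the transcription factors HHEX (66.6 insertions per site) and GATA2 (47.4), while FLI1, MECOM and MEIS1 lay 983 to 3127 kb from any dense region. Of 48 leukemia signalling genes 10 were counted, with PIM1 at 77.1, CRKL, an adaptor protein that BCR-ABL1 phosphorylates, at 57.6 and BCR at 54.7. MYC was not counted, and 5 regions of 38.2 to 66.5 insertions per site had it as nearest gene, from 147 to 807 kb away. Of 39 chromatin regulators 8 were counted, ARID1A at 61.2 and RAD21 at 50.0 among them.

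Among common reference genes 7 of 34 were counted, with PKM (pyruvate kinase) at 74.9 and EEF1A1 (an elongation factor) at 49.0. GAPDH and ACTB were not. Ribosomal protein genes gave 2 of 82, proteasome genes 2 of 38, splicing factors 4 of 74, respiratory chain genes 5 of 92, Mediator subunits 2 of 28, translation factors 8 of 66 and RNA polymerase II subunits 0 of 13. Histone genes gave 61 of 79, in clusters where 1 region covers several genes. Ribosomal protein genes have a median length of 5.55 kb and those of the erythroid regulators 37.9 kb. Globin genes (3.93 kb) and histone genes (0.516 kb) are shorter still. A low share did not always go with few insertions. The median gene had 8.93 insertions per site in the ribosomal protein list, 8.44 in the reference list and 9.60 among erythroid regulators. It had 3.93 over all protein-coding genes.

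**Figure D3:**
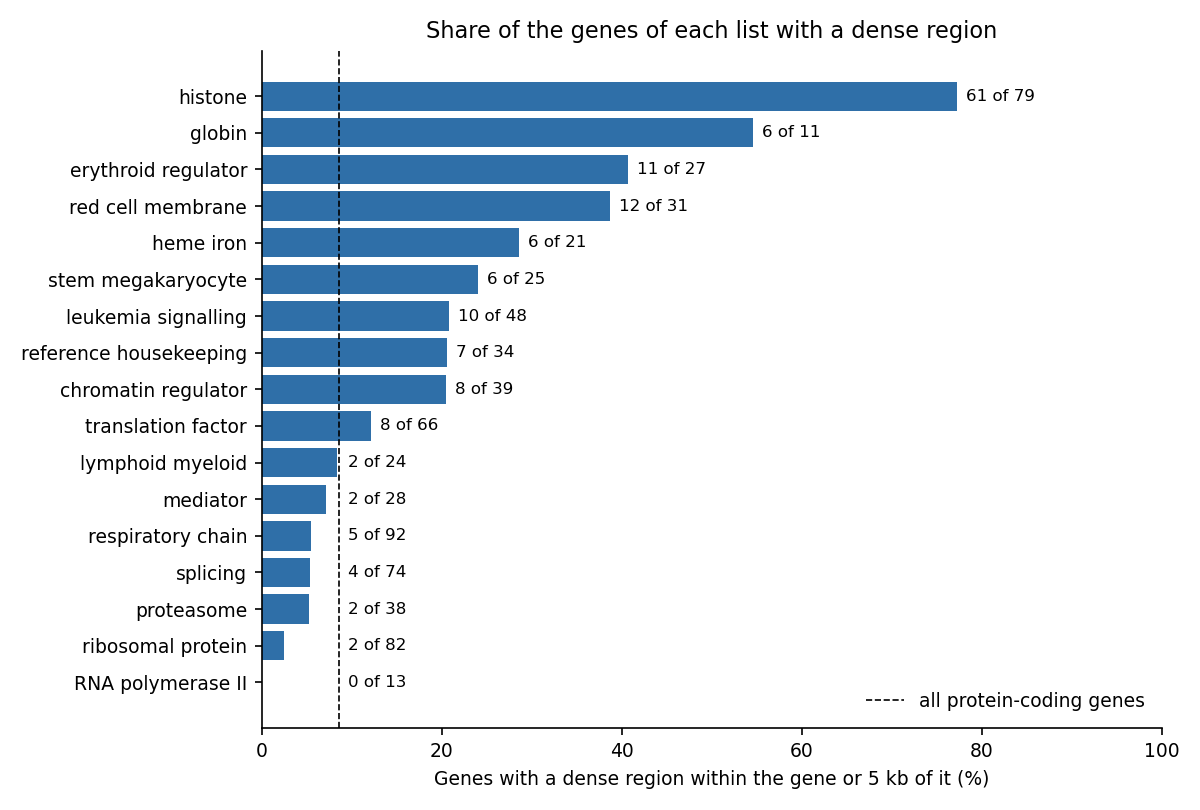
Share of the genes of each list with a dense region within the gene or 5 kb of it (x axis, percent; the numbers give genes counted of genes on chromosomes 1 to 22), with the share of all protein-coding genes as a dashed line at 8.54%. Histone, globin, erythroid regulator and red cell membrane genes stand highest, and ribosomal protein and RNA polymerase II genes lowest.

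Start sites were frequent in dense bins, yet most dense bins held none. A start site of a protein-coding transcript lay in 30.4% of dense bins and in 9.27% of eligible bins. Dense bins with a start site had a median of 40.2 insertions per site and those without 42.1. Within 1 kb of a start site, dense regions held 6.25% of their TTAA sites and 8.37% ± 0.0888 (SD, n = 20) of their insertions, and eligible bins 1.58% of sites and 5.86% ± 0.138 (SD, n = 20) of insertions. Within dense regions such promoter sites held 65.8 insertions each, intron sites 45.1 and intergenic sites 48.4. In the eligible bins these values were 10.4, 3.07 and 2.23.

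Dense bins had a median GC content of 43.3% and 57 TTAA sites, against 39.6% and 68 in eligible bins. Short motifs were counted on both strands of each 10 kb bin. AGATAA or TGATAA, the GATA motif, occurred 13.6 times in the mean dense bin and 15.5 times in the mean eligible bin, while its letters in reverse order occurred 12.03 and 14.98 times. A composite of an E-box piece and a GATA motif, which overlaps the first motif by construction, was found in 18.3% of dense and 12.8% of eligible bins. TGACTCA or TGAGTCA, the AP-1 motif, was found in 84.7% against 78.1%, with 78.0% against 75.2% for its reversed letters, and an ETS motif in 8.77% against 4.47%. Among bins of 40 to 45% GC the order of the GATA motif turned, with 14.2 in the mean dense bin and 13.7 in the mean eligible bin. Dense bins were also higher at 35 to 40% (18.5 against 17.8), 45 to 50% (10.5 against 9.74) and 50 to 55% GC (7.14 against 6.64), but not at 30 to 35% GC (22.2 against 22.4). The reversed letters of the GATA motif occurred 17.0 against 17.6 times at 35 to 40% GC, 12.92 against 12.97 at 40 to 45% and 8.78 against 8.72 at 45 to 50%. At 40 to 45% GC the composite was in 17.8% of dense and 12.9% of eligible bins, while AP-1 was in 83.9% against 80.7%, a gap close to that of its reversed letters, 79.5% against 76.5%. In the other GC classes the AP-1 gap was wider than that of the reversed letters. At 35 to 40% GC it was 84.9% against 75.7%, with 80.6% against 74.6% for the reversed letters. At 45 to 50% GC it was 86.7% against 81.9%, with 78.0% against 76.2%.

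Chromosomes differed in how much of them was dense, from 0.251% of the eligible bins of chromosome 13 to 1.83% on chromosome 6, 1.63% on chromosome 22 and 1.44% on chromosome 1. The mean density over all eligible bins moved with this, from 1.63 insertions per site on chromosome 13 to 3.74 on chromosome 6 and 4.10 on chromosome 22.

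Insertions in dense regions lay more often on the strand opposite to the gene than on that of the gene. In the 1036 regions over 1 protein-coding gene, the insertions on the strand of the gene made up a median of 40.5% (quartiles 28.4% and 48.8%). All insertions of a region were counted for this, also those outside the gene. In the 512 regions over a gene on the plus strand the median share of plus insertions was 40.8%, in the 524 over a gene on the minus strand 59.9% and in the 683 without a gene 49.6%.

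Orientation was tested for each region with limma on the log2 ratio of plus to minus insertions, and a region was called when the adjusted p was below 0.05 and the plus share at least 60% or at most 40%. Of 1958 regions 938 were called (47.9%), 475 plus and 463 minus, below the 59.9% called over all 66628 tested units, which are the dense regions and those other eligible bins where 10 or more libraries each held 10 or more insertions. The background was 29.8% for plus and 30.1% for minus calls. Among units of like size the shares of dense regions and other units were 56.1% and 60.5% at 600 to 1500 insertions, 52.1% and 57.8% at 1500 to 3000, and 43.7% and 35.3% of 17 other units at 3000 to 6000. With barcodes collapsed 555 of 1947 regions were called. On the adjusted p alone, 1708 regions passed (87.2%), against 75.6% of all units. Of the 581 called regions over 1 gene, 507 favoured the strand opposite to the gene (87.3%) and 74 that of the gene. Calls were made in 56.5% of regions with a start site, in 42.9% of those without and in 33.5% of those that overlapped no protein-coding gene. These counts by gene and by start site, and that with barcodes collapsed, were not made over all units. They describe dense regions and do not set them apart. The strand of the gene held 32.3% ± 0.769 (SD, n = 20) of insertions in the other eligible bins and 37.9% ± 0.741 (SD, n = 20) in dense regions.

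The smallest adjusted p for minus insertions belonged to a region in ADGRV1, an adhesion receptor gene on the plus strand (chr5:90630001-90660000), where the plus share was 8.37% in the lowest library, 10.6% at the median and 12.9% in the highest (log2 ratio -3.06, SE 0.0301, limma adjusted p = 5.49e-39). In OPA1, a mitochondrial fusion gene on the plus strand (chr3:193650001-193670000), plus shares ran from 5.25% over 7.47% to 9.55%. In RREB1, a transcription factor gene on the plus strand (chr6:7130001-7150000), they ran from 9.72% over 12.3% to 14.5%.

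Regions of genes on the minus strand showed the opposite excess. In SGMS1, a sphingomyelin synthase gene (chr10:50310001-50340000), plus shares ran from 91.1% over 93.2% to 95.5% (log2 ratio 3.77, SE 0.0394, limma adjusted p = 1.92e-38). In RANBP9 (chr6:13660001-13680000) they ran from 84.4% over 87.5% to 90.3%, and in ZMYND8, a chromatin reader gene (chr20:47350001-47370000), from 80.9% over 82.7% to 86.5%. Every library of these 6 regions lay on the side opposite to its gene. With barcodes collapsed the log2 ratios were smaller, -1.94 at ADGRV1, -2.40 at OPA1, -1.80 at RREB1 and 2.36 at SGMS1, and the calls stood. At the densest region, on chromosome 19, the shares stayed near even, from 43.3% over 47.3% to 50.8%.

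Exceptions ran with the gene. In the region over TFPI, an inhibitor of coagulation on the minus strand (chr2:187550001-187560000), 95.7% of insertions lay on the strand of the gene. In that over PCBP1, an iron chaperone and RNA binding protein, it was 87.1%. In that over HSPA5, an endoplasmic reticulum chaperone, it was 80.4%. These shares count the whole region, not the gene alone. Of the 1036 regions over 1 gene, 6 had more than 80% on the strand of the gene and 149 had less than 20%. These extremes were picked by their values. The lowest share was 0.433% in the region over CARM1, an arginine methyltransferase gene (5 plus and 1151 minus insertions).

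Over libraries, the share of insertions on the strand of the overlapped gene was 37.2% ± 0.369 (SD, n = 10) in dense regions for hyPBase and 38.5% ± 0.293 (SD, n = 10) for hyPBase-centrip. Unlike the region shares above, this share used only part of the insertions in dense regions, a mean of 168580 of 347860 for hyPBase. In the other eligible bins it was 31.6% ± 0.427 (SD, n = 10) and 33.0% ± 0.271 (SD, n = 10). All 20 libraries were below 50% in dense regions, and all 20 were higher there than in the other bins. The hyPBase libraries, at 36.6% to 37.8%, did not overlap the hyPBase-centrip libraries, at 38.1% to 38.9%, and the ranges outside dense regions, 31.0% to 32.2% and 32.6% to 33.4%, did not overlap either. With the density threshold at 20 insertions per site the mean share in dense regions was 36.4%, and at 40 it was 39.5%. Sites near the barcode ceiling cannot be far from even in orientation, and the part of this in the higher share of dense regions was not tested. A separate measure counted insertions on the strand of the nearest start site, by distance from it up to 10 kb. It was lowest within 500 bases upstream, at 28.8% in dense regions and 25.1% in eligible bins.

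**Figure D4:**
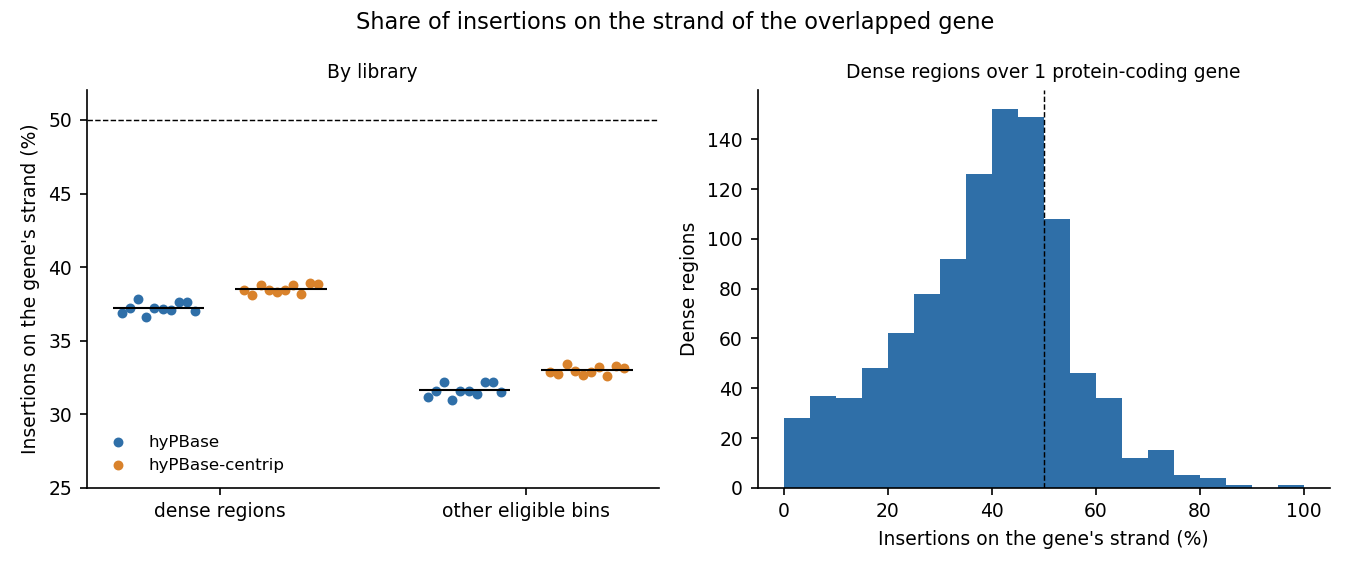
Left: percent of insertions on the strand of the overlapped protein-coding gene in each library (points; lines are means of 10 libraries) in dense regions and in the other eligible bins; the y axis starts at 25%. Right: number of dense regions over 1 gene by that percent, in steps of 5%. Every library lies below 50%, and the distribution over regions leans to the side opposite to the gene, with a median of 40.5%.

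Dense regions had 4.49 ± 1.01 (SD, n = 20) reads per insertion and the other eligible bins 3.25 ± 0.726 (SD, n = 20), and dense regions were higher in 20 of 20 libraries. Counting insertions with at least 2 reads, with the threshold scaled to their number, gave 2888 dense bins, among them 2499 of the 2531. A position and orientation carried 3.18 ± 0.246 (SD, n = 20) insertions with different barcodes in dense regions and 1.44 ± 0.0427 over eligible bins.

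The helper comparison asked whether hyPBase-centrip used the same dense regions as hyPBase. Of 1958 regions, 157 were lower and 8 higher with hyPBase-centrip (edgeR quasi-likelihood test, adjusted p below 0.05), 8.02% and 0.409%, against 0.698% and 0.281% of all tested units (0.979% in either direction). Regions with more insertions give smaller errors, and among units of 1500 to 3000 insertions, 5.00% of dense regions and 6.32% of other units were called. The median log2 difference over all dense regions was -0.05, against -0.00044 over all units, and the median size of a called difference was 0.22. With barcodes collapsed edgeR called 0 of 1947 regions, with 183 at an unadjusted p below 0.05, and without the filter on low counts it called 80 lower and 6 higher. With the library's log insertion number as a term 148 regions were lower and 50 higher, and the median log2 difference was -0.008. With insertions of at least 2 reads 58 were lower and 28 higher, with a median of 0.006. RLE size factors gave 152 and 8 and DESeq2 171 and 8. Libraries of the groups also differed in depth, with 5.00 ± 0.977 (SD, n = 10) reads per insertion in dense regions for hyPBase and 3.98 ± 0.793 (SD, n = 10) for hyPBase-centrip. Over eligible bins hyPBase libraries held 0.131 ± 0.0247 (SD, n = 10) insertions per TTAA site and hyPBase-centrip libraries 0.150 ± 0.0299 (SD, n = 10). The smallest library, hyPBase replicate 9, put 15.9% of its insertions into dense regions and the largest, hyPBase-centrip replicate 9, 13.5%. The part of depth and library size in the helper result was not tested beyond these settings.

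The region with the smallest adjusted p overlaps TRIB3, a stress-induced pseudokinase (chr20:360001-380000). It held 64.9, 74.6 and 93.0 CPM in the lowest, median and highest hyPBase library and 45.1, 54.8 and 59.4 with hyPBase-centrip (log2 difference -0.50, SE 0.0614, edgeR adjusted p = 2.24e-10). The groups did not overlap. In RTN4, an endoplasmic reticulum shaping gene, chr2:55050001-55060000 held 162, 186 and 201 CPM with hyPBase and 129, 144 and 157 with hyPBase-centrip (log2 difference -0.36, SE 0.0460, edgeR adjusted p = 1.12e-09), again without overlap, and chr2:55090001-55120000 differed by -0.32 with overlapping groups. With barcodes collapsed the differences were -0.28 at TRIB3 and -0.22 and -0.20 at RTN4, and none was called (edgeR adjusted p = 0.9997).

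Of the regions that were higher with hyPBase-centrip, one 24.6 kb from APCDD1L (chr20:58540001-58550000) held 36.5, 50.1 and 56.9 CPM with hyPBase and 50.5, 64.3 and 93.1 with hyPBase-centrip (log2 difference 0.40, SE 0.0661, edgeR adjusted p = 1.43e-05). One over INO80C, a subunit of the INO80 remodelling complex, differed by 0.32 and one beside BMP10, a growth factor gene, by 0.27 (chr18:35460001-35470000 and chr2:68850001-68860000). In these 3 the groups overlapped. With barcodes collapsed the differences were 0.11 near APCDD1L, 0.016 at INO80C and 0.15 at BMP10, and none was called. A start site lay in 67 of the 157 lower regions (42.7%), near the 36.6% of all dense regions, and in 0 of the 8 higher ones, and the difference between the directions was not tested.

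**Figure D5:**
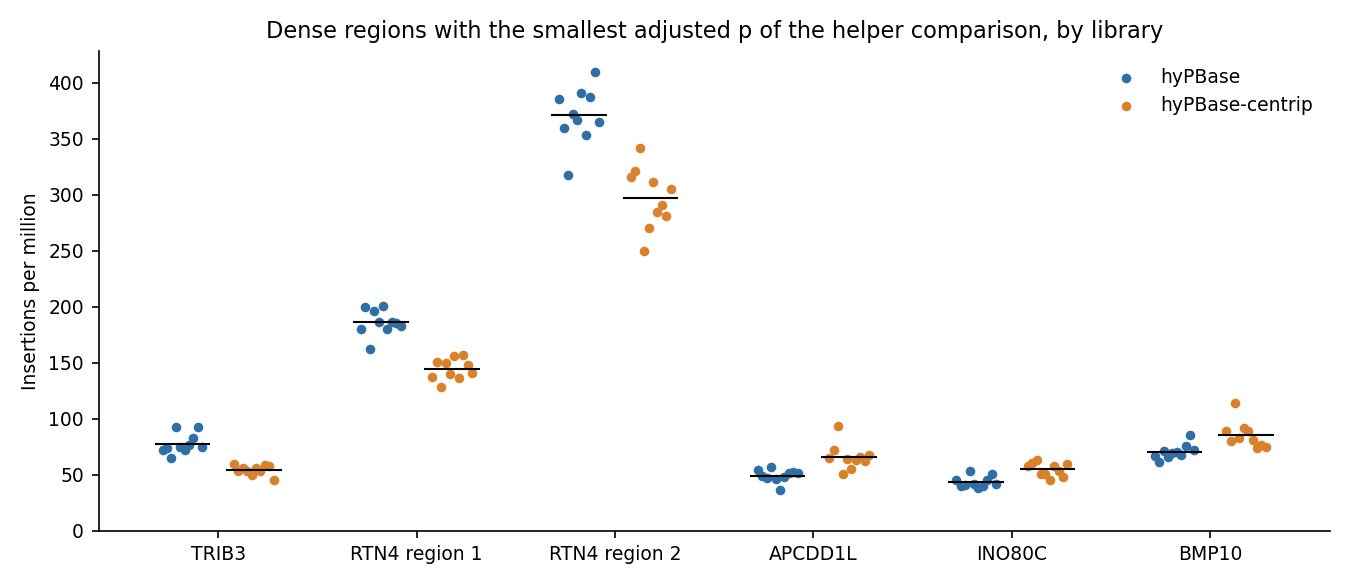
Abundance (y axis, CPM) in each library (points; lines are means of 10 libraries) for the 3 dense regions with the smallest adjusted p that were lower with hyPBase-centrip (TRIB3 and RTN4 on the left) and the 3 that were higher (at or near APCDD1L, INO80C and BMP10 on the right). The helpers do not overlap at TRIB3 and at the first RTN4 region.

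Over all dense regions 165 were called in the helper comparison (8.43%), and the lists are small beside that share. In the regions that overlap a gene of a list or have it as nearest gene, 0 of 4 globin regions, 0 of 9 of heme and iron, 1 of 13 of the red cell membrane, 3 of 20 of erythroid regulators, 2 of 15 of stem cell and megakaryocyte genes and 0 of 9 of reference genes were called, all of them lower with hyPBase-centrip. The 3 of the erythroid regulators were 2 regions in SOX6 (log2 differences -0.30 and -0.21) and 1 in MYB (-0.18). That of the red cell membrane list lies over HEMGN (-0.14), which does not encode a membrane protein. GATA2 (-0.30, edgeR adjusted p = 0.0399) and 1 of the 9 regions of RUNX1 (-0.20) made up those of the stem cell list, and PIM1 (-0.20) and 2 regions of GAB2 (-0.24 and -0.26) the 3 of 26 of the leukemia signalling list. The median log2 difference was -0.08 in the globin and in the erythroid regulator regions and 0.02 in the reference gene regions. It was -0.10 for stem cell and megakaryocyte genes and for leukemia signalling, and -0.11 for chromatin regulators and the respiratory chain. Histone genes stood at -0.05, splicing factors and Mediator at -0.03 and translation factors at -0.003. The lists were not compared by a test.

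The last comparison asked whether helper changed the orientation within a region. Of 1958 regions 23 were called (1.17%), 11 with a lower and 12 with a higher plus share with hyPBase-centrip, against 0.057% of all tested units (limma, adjusted p below 0.05), and the limma count was 0 without weighting libraries by their insertions, with 128 regions at an unadjusted p below 0.05, and 0 with barcodes collapsed, with 112. At like size the shares were closer, 0.285% of dense regions and 0.0376% of other units at 600 to 1500 insertions and 0.625% and 0.211% at 1500 to 3000. In IGF2BP2, an mRNA binding protein gene on the minus strand (chr3:185810001-185830000), plus shares were 76.6%, 79.1% and 81.0% in the lowest, median and highest hyPBase library and 67.7%, 73.8% and 77.2% with hyPBase-centrip. The groups overlapped, and the difference in log2 ratio was -0.40 (SE 0.0639, limma adjusted p = 0.00837). Near SAMSN1 (chr21:14730001-14770000) the plus shares of 55.1% to 58.8% with hyPBase and 51.97% to 54.1% with hyPBase-centrip did not overlap.

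In the other direction, over ITFG1 and PHKB (chr16:47460001-47470000), plus shares rose from a range of 48.9% to 56.3% with hyPBase to 56.9% to 67.1% with hyPBase-centrip, without overlap (difference in log2 ratio 0.42, SE 0.0659, limma adjusted p = 0.00837). In NCAM2 (chr21:21140001-21170000) the ranges were 44.98% to 48.5% and 49.7% to 51.2%, also without overlap. In NUDT4 the plus share was lower and in ZFPM2 higher with hyPBase-centrip, with differences in log2 ratio of -0.45 and 0.35. With barcodes collapsed none of these 6 regions was called, and the differences were -0.13 at IGF2BP2, 0.11 at ITFG1 and PHKB and 0.18 at ZFPM2.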

How the data were processed

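Insertions were recovered from polyadenylated RNA of K562 cells in 22 libraries, 10 per helper and 2 left unassigned. The authors deposited 1 line per insertion with its read count (counts, not normalized) on hg38, and their processing notes name Trimmomatic, BWA and SAMtools without roles or versions. All insertions on chromosomes 1 to 22 lay at TTAA (100%). Libraries held 1509672 to 3596762 insertions and 3746826 to 12931767 reads.

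Lines were counted per 10 kb bin, and genes came from GENCODE release 44. For the tests each merged region was 1 unit beside every other eligible bin, and 66628 of 263456 units had at least 10 insertions in at least 10 libraries. The helper comparison used edgeR 4.0.16 (quasi-likelihood, TMM) in R 4.3.3. Orientation used limma 3.58.1 on log2 of plus over minus insertions with a pseudocount of 0.5, weighted by insertions. P-values were adjusted by Benjamini-Hochberg over all units. DESeq2 1.42.0 was an alternative. On simulated data the helper fit recovered 168 of 200 units changed 1.25-fold and 200 of 200 changed 1.5-fold, with 7 and 10 false calls. The simulated counts had no barcode ceiling, so they cannot speak to the excess of lower over higher calls.

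The members and gene lists were chosen with earlier results of these data known. Regions named in the text are the 10 densest, the 5 longest, those beside the threshold, the 3 with the smallest adjusted p in each direction of each test, and those of the gene lists; others are said to be picked by their values. Donor-only control cells were not analysed here. Some members of these sets are not reported here.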

Additional observations from a re-analysis of the deposited data

Results flagged for a closer look

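The 2 libraries whose labels name different helpers in different fields took part in no comparison, and dense regions are visible in them too. Dense regions held 11.8% of the insertions of the first of these libraries and 12.1% of those of the second, against 13.5% to 15.9% in the 20 labelled libraries. In the first, 1749 of the 2531 dense bins (69.1%) exceeded 10.7 times the library's mean density, and in the second 1785 (70.5%). They held 2380727 and 1854375 insertions, within the range of the others.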

How the results depend on the processing

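The density threshold and the way insertions are counted set the number of members. With 20 insertions per site there were 5192 bins in 3796 regions, holding 22.1% of insertions with a same-strand share of 36.4%, and with 40 there were 1378 bins in 1129 regions, with 10.1% and 39.5%. Collapsing barcodes, so that a position and orientation counts once per library (at most 40 per site, threshold scaled to 20.7), left 238 bins in 205 regions, and the regions chosen above then held 6.70% of insertions with a same-strand share of 41.01%. With at least 2 reads they held 16.1%. The promoter share was 27.9% within 5 kb of a start site and 5.31% with 1 start site per gene.

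Helper calls by edgeR fell from 165 to 86 without the filter on low counts (80 lower, 6 higher), to 86 with at least 2 reads (58 lower, 28 higher), and to 0 of 1947 regions with barcodes collapsed, where 183 had an unadjusted p below 0.05. Orientation calls fell to 555 with barcodes collapsed. The helper difference in orientation (limma) gave 84 calls with a pseudocount of 2, 0 without weights (128 at an unadjusted p below 0.05) and 0 with barcodes collapsed (112). Leaving out hyPBase-centrip replicate 3, the shallowest of its group, gave 193 helper calls, 938 orientation calls and 16 of the difference, with 2509 bins in 1938 regions. Other replicates were not left out.

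Same-numbered libraries did not deviate together (correlations -0.0226 to 0.0336 in 10 pairs, 2 libraries closest to their own number), so the numbers do not pair them. With the replicate block there were 127 helper calls and 14 calls of the difference in orientation. Of the named regions, the 6 of the helper test lost their call with barcodes collapsed and in no other of 8 settings, those of orientation kept theirs in 36 of 36 values, and those of the difference lost it in 16 of 36. Depth limits small differences, with a median SE of 0.0587 on the log2 scale.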
